A study of Mus musculus with 4 samples.

Results

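Human B cells that carried TCL1A, an activator of the kinase AKT that is switched on in early B cells and lost as they mature, were taken from the blood of humanised mice and compared between naive, sham-operated and spinal cord-injured (SCI) animals. A barcode was a member where over 50% of its unique molecular identifiers (UMIs, each standing for 1 captured transcript) lay on human genes, where at least 500 human genes were detected, and where MS4A1 (CD20), CD79A and TCL1A each had at least 1 UMI. Any UMI of CD3D, CD3E or CD3G, the T cell receptor complex genes, or of TNFRSF17, the plasma cell receptor BCMA, removed a barcode. This rule found 1861 members among 17842 human barcodes with at least 500 genes, out of 22830 barcodes in all. Naive blood gave 698 of them, sham blood 459, SCI blood 698 and the injured spinal cord 6.

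The hosts were NSG-SGM3 mice, which on the NOD.Cg background carry Prkdcscid and IL2rgtm1Wjl and so lack lymphocytes of their own. Their transgene, Tg(CMV-IL3,CSF2,KITLG)1Eav/MloySzJ, makes human IL-3, GM-CSF and stem cell factor from a CMV promoter. They had been irradiated as pups and given CD34+ cells from human cord blood. Naive hosts had no surgery, sham hosts had a laminectomy at T9, and SCI hosts had the laminectomy followed by a contusion at T9. Operated hosts were sampled at day 7, and all hosts have an age label of 15 weeks. Cells of several animals were pooled and sorted for live human CD45+ cells into 1 library per condition, so no value has a replicate and no test between conditions was possible. Naive and sham hosts were male while the SCI pool held both sexes, so condition, host sex, pool and library cannot be told apart. The human cord blood donors of each pool are not given here, so a difference of donor cannot be told apart either. Intervals given here are 95% intervals that cover counting error only.

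In the bone marrow, B cell precursors rearrange their immunoglobulin genes with RAG1, RAG2 and DNTT, and then leave for the blood as immature cells that display IgM. Transitional and naive cells add IgD by alternative splicing of the same transcript and wait in circulation until antigen arrives. TCL1A is high through these stages and falls in germinal centre, memory and plasma cells, while CD27, TNFRSF13B (TACI) and AIM2 mark memory cells. In humanised mice, B cells often remain at the immature and naive stages.

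The 3 blood libraries held 34161760 to 36487994 UMIs each. Members had a median of 3436 UMIs in naive, 5632 in sham and 4793 in SCI blood, and of 1476, 2059 and 1764 human genes. Because depth differed, shares of cells were also taken after each cell was thinned to 1000 UMIs. Naive blood shared 16 barcodes with sham blood and 16 with SCI blood, and sham shared 5 with SCI blood. A single shared barcode met the rule in both naive and sham blood. Free RNA was also unequal: an IGHM UMI was found in 54.1% of T cells of naive blood, against 8.30% in sham and 6.97% in SCI blood. Immunoglobulin values of the naive library therefore carry a larger background.

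Markers of both the immature and the naive stage were read in the members. VPREB3, a surrogate light chain partner retained in young B cells, had a UMI in 46.0% of members of naive, 53.6% of sham and 48.0% of SCI blood, against at most 0.190% of T cells in any blood library. IGHD was found in 82.8%, 89.1% and 87.8%, and at most 0.490% of T cells held it. All members of the 3 libraries carried IGHM, and in 0 of 698, 0 of 459 and 0 of 698 did UMIs of switched isotypes outnumber those of IGHM and IGHD, which at 3 counts of the total allows shares of up to 0.430%, 0.654% and 0.430%. FCER2 (CD23), a receptor of mature naive cells, was in 30.2%, 32.7% and 29.4%. CR2 (CD21), a complement receptor, was in 6.02%, 11.6% and 9.89%, and IL4R, the IL-4 receptor, in 5.59%, 8.93% and 8.31%. CD24, high on immature cells, was in 51.4%, 64.9% and 62.0%. B cells with no TCL1A UMI, chosen otherwise by the same rule, had CD24 in 47.6%, 59.6% and 63.9%. FCER2 was in 28.3%, 35.1% and 28.3% of them, CR2 in 4.17%, 9.57% and 9.64%, and IL4R in 7.02%, 7.45% and 7.23%. FCER2, CR2, IL4R and CD24 are thus not read as particular to members. These shares use all UMIs, as do those of the young and memory genes below, and depth differed between the libraries. After thinning, VPREB3 was in 19.8% of members of naive, 19.2% of sham and 16.8% of SCI blood, so sham blood was no longer highest. No order of the libraries is read from the unthinned marker shares.

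Genes that mark the youngest stages were rare. MME (CD10), a surface peptidase of immature cells, was found in 2.87% of members in naive, 5.66% in sham and 2.01% in SCI blood, and CD38 in 9.31%, 15.7% and 6.73%. RAG1 and RAG2 had no UMI in any member of the 3 libraries, which by the same rule allows a UMI, though not expression, in up to 0.430%, 0.654% and 0.430% of cells, and DNTT had 1 cell with a UMI, in SCI blood. VPREB1, part of the surrogate light chain of precursors, was in 2.29%, 3.05% and 1.58%. These markers do not place the cells at 1 stage, and the name TCL1A-positive B cells is used for them below.

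Memory genes were found at unequal shares. TNFRSF13B (TACI), a receptor for BAFF and APRIL, was in 38.1% of members in naive, 40.3% in sham and 38.5% in SCI blood. CD27 was found in 5.16% of members in naive, 4.14% in sham and 5.01% in SCI blood, and AIM2, a DNA sensor of memory cells, in 1.72%, 1.74% and 1.29%. At least 2 of the mitosis genes MKI67, TOP2A, CDK1 and BIRC5 were detected in 5 members of naive blood (0.716%, interval 0.233 to 1.66%), 3 of sham (0.654%, 0.135 to 1.90%) and 3 of SCI blood (0.430%, 0.0887 to 1.25%).

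**Figure D1:**
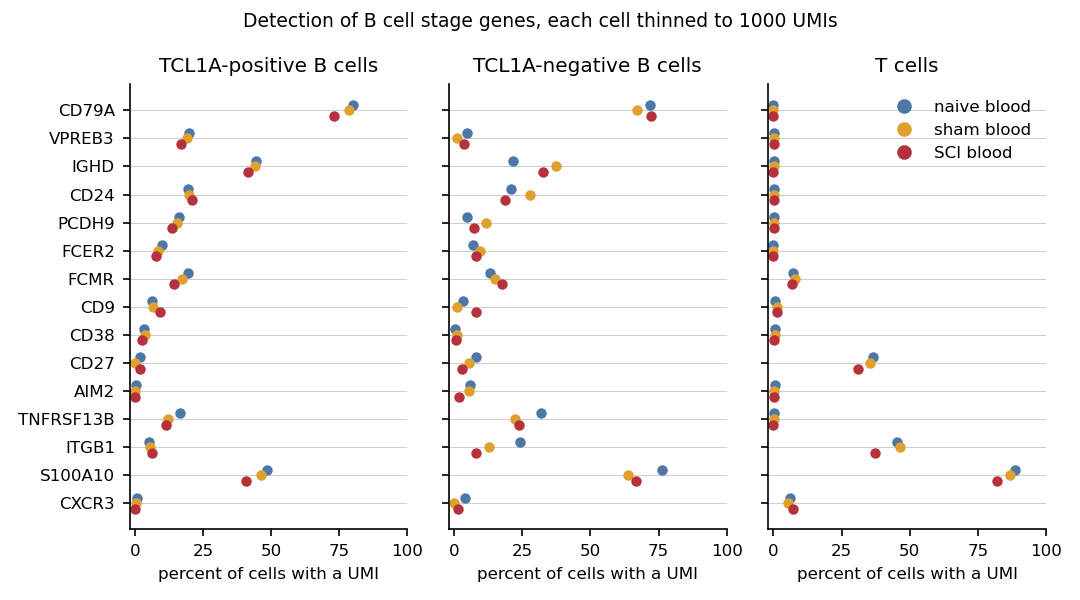
Percent of cells with at least 1 UMI of each gene (x axis) after thinning to 1000 UMIs, in TCL1A-positive B cells, TCL1A-negative B cells and T cells, with 1 point per blood library. VPREB3 and IGHD were found in more TCL1A-positive than TCL1A-negative B cells of every library, and TNFRSF13B and S100A10 in fewer.

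TCL1A-positive B cells made up 10.6% of human cells in naive blood (interval 9.86 to 11.4%), 9.37% in sham blood (8.57 to 10.2%) and 11.2% in SCI blood (10.4 to 12.02%). After thinning these shares were 5.62% (5.07 to 6.20%), 4.48% (3.91 to 5.09%) and 5.15% (4.61 to 5.73%). The interval of sham blood overlapped that of naive blood on both scales and that of SCI blood after thinning, and the order of naive and SCI blood turned with thinning, so no order of the libraries is read.

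Among B cells the naive library stood apart. TCL1A was detected in 60.5% of B cells in naive blood (57.6 to 63.3%), in 83.0% in sham (79.6 to 86.0%) and in 80.8% in SCI blood (78 to 83.4%). Thinning brought the shares to 40.9% (37.7 to 44.2%), 49.9% (45.1 to 54.7%) and 49.9% (46.0 to 53.9%), so the gap narrowed but the naive interval stayed below both others. The number of TCL1A-negative B cells behind this was 456 in naive, 94 in sham and 166 in SCI blood. A TCL1A UMI was seen in 0.343%, 0.203% and 0.499% of T cells. T cells were chosen without any MS4A1 or CD79A UMI, so these shares can understate free TCL1A RNA.

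**Figure D2:**
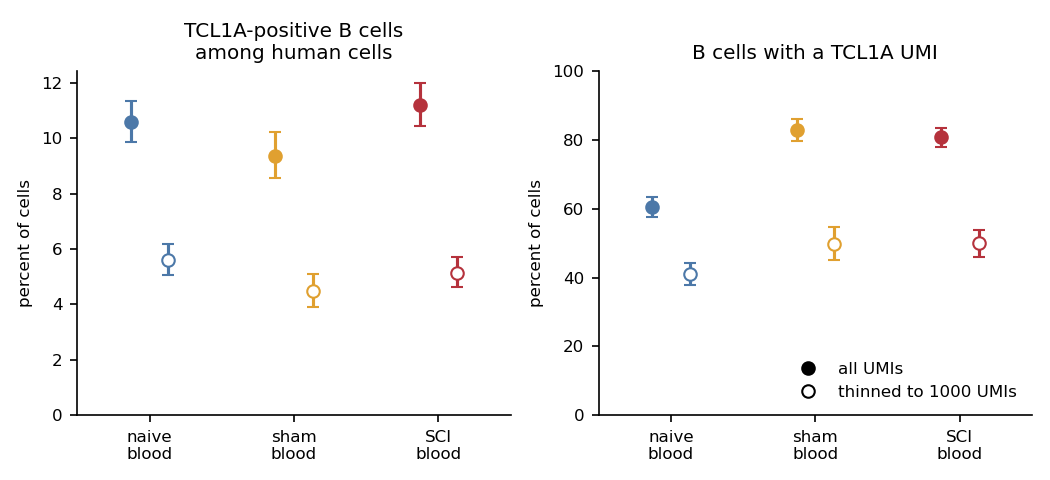
Share of human cells that were TCL1A-positive B cells (left) and share of B cells with a TCL1A UMI (right), in percent on axes from 0, by blood library. Filled points use all UMIs, open points use cells thinned to 1000 UMIs, and bars are 95% Clopper-Pearson intervals; naive blood was lowest on the right on both scales.

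Members varied in how much TCL1A they held. The median was 3 UMIs in naive, 5 in sham and 4 in SCI blood, and the highest cell held 28, 28 and 24. Cells just inside the rule, with 1 TCL1A UMI, were 153 of 698 in naive (21.9%), 68 of 459 in sham (14.8%) and 97 of 698 in SCI blood (13.9%). In these cells VPREB3 stood at 205, 178 and 156 CPM (counts per 1000000 counts of human genes, ribosomal and mitochondrial ones left out), while cells just outside, with no TCL1A UMI, had 66.2, 52.6 and 99.4 CPM. Cells with 4 or more TCL1A UMIs had 401, 378 and 317 CPM. VPREB3 was thus lowest outside the rule and highest at 4 or more UMIs in each library.

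Other genes differed between the ends of the same axis, and the middle strata did not always lie between them. CD38 went from 8.73 CPM in cells with no TCL1A UMI to 68.3 CPM at 4 or more UMIs in naive blood, from 6.87 to 69.4 CPM in sham and from 6.41 to 29.3 CPM in SCI blood. TCL1B, the neighbouring paralogue of TCL1A, went from 1.46 to 66.0 CPM, from 2.29 to 62.0 CPM and from 6.41 to 76.2 CPM. S100A10, a calcium-binding partner of annexin A2, went the other way, from 4220 to 1330 CPM, from 3138 to 1148 CPM and from 3349 to 1225 CPM. TNFRSF13B went from 634 to 229 CPM, from 469 to 202 CPM and from 497 to 209 CPM. CD83, an activation marker, stood at 121, 121 and 139 CPM in cells with no TCL1A UMI and at 56.9, 58.7 and 68.9 CPM at 4 or more, but in sham blood it was highest, at 167 CPM, in cells with 1 UMI. MS4A1 itself varied little, from 4321 to 4574 CPM in naive, 4603 to 4790 in sham and 4323 to 4463 in SCI blood. TCL1A chose these strata, so they are given as a description.

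**Figure D3:**
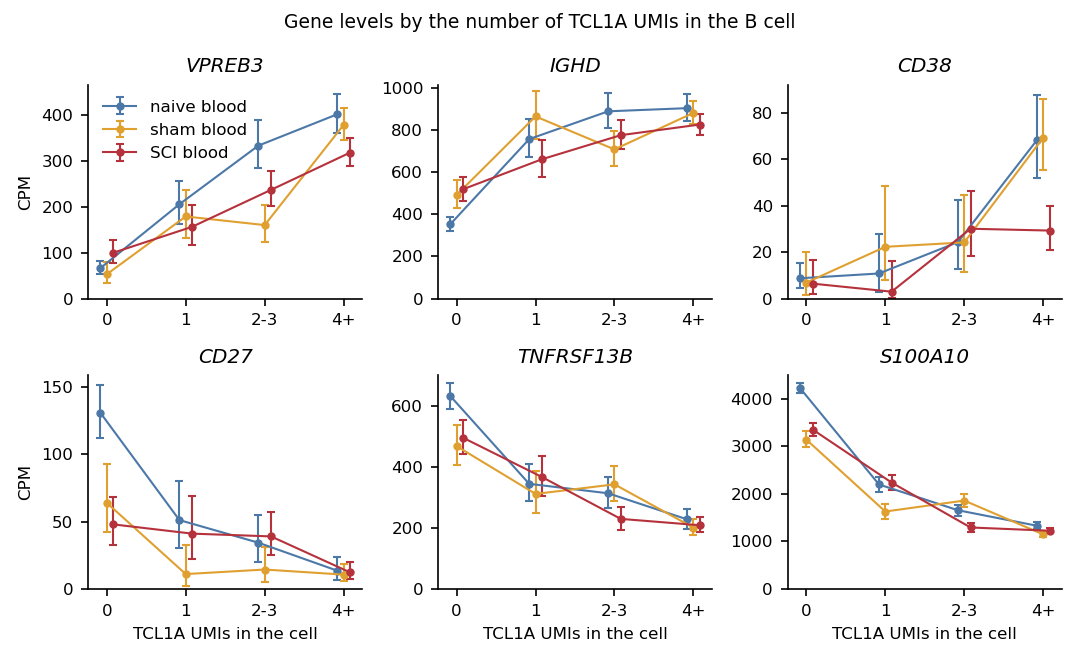
CPM of 6 genes (y axes from 0) in B cells grouped by their TCL1A UMIs (x axis, 0 is outside the rule), with 1 line per blood library and 95% Poisson intervals. VPREB3, IGHD and CD38 were higher at 4 or more UMIs than at 0 in each library, and CD27, TNFRSF13B and S100A10 lower.

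The wider contrast with TCL1A-negative B cells of the same library had the same character, and is also a description, since TCL1A chose the cells. Log2 ratios of CPM, with 0.5 counts added to each sum, are given for naive, sham and SCI blood in turn. Among the 15 genes with the highest mean ratio, NEIL1, a DNA glycosylase, had log2 ratios of 2.21, 1.89 and 2.23, VPREB3 had 2.35, 2.49 and 1.44, and TSPAN13, a tetraspanin, had 2.23, 1.82 and 1.41. BCL7A, a chromatin remodelling subunit, had 1.78, 2.02 and 0.92, and LAMP5, a lysosome-associated membrane protein, had 2.77, 1.92 and 1.80. The non-coding AL139020.1 led the list with 3.27, 3.29 and 4.07. PCDH9, a protocadherin, varied between libraries, with 2.38, 0.49 and 1.06.

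The 15 genes with the lowest mean ratio included those that follow. ITGB1, the beta 1 integrin, had log2 ratios of -2.68, -1.53 and -1.05 in naive, sham and SCI blood, and its CPM in the TCL1A-negative cells was 597, 279 and 165. ANXA1 (annexin A1) had -1.76, -2.45 and -1.56, CTSH (cathepsin H) -1.11, -1.93 and -1.16, and EBI3, a subunit of IL-27 and IL-35, -1.46, -1.43 and -1.52. LGALS1 (galectin 1) had -1.40, -1.03 and -0.62, TNFRSF13B -1.19, -0.92 and -1.06, and SIGLEC10, an inhibitory sialic acid receptor, -1.54, -0.85 and -0.98. The chemokine receptor CXCR3, outside the named genes and singled out after its values were seen, stood at 4.02, 4.23 and 1.69 CPM in members against 77.8, 32.0 and 16.0 CPM in TCL1A-negative cells.

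Detection of IGHD and of switched isotypes followed the same split. IGHM without any IGHD UMI was found in 17.2% of members of naive, 10.9% of sham and 12.2% of SCI blood, against 48.7%, 26.6% and 27.7% of TCL1A-negative B cells. Any UMI of a switched isotype was found in 32.5%, 28.3% and 25.2% of members, against 61.4%, 66.0% and 56.6% of TCL1A-negative cells and 1.91%, 0.145% and 0.262% of T cells. Yet switched UMIs outnumbered those of IGHM and IGHD in only 3 of 456, 0 of 94 and 0 of 166 TCL1A-negative cells. IGHM was in 99.8%, 100% and 100% of them, so it was not particular to members. IGHA1, the IgA1 heavy chain, stood at 170, 110 and 102 CPM in members. It was also at 72.3 CPM in T cells of naive blood, against 0.270 and 0.460 CPM in those of sham and SCI blood, and the part of free RNA in the naive value was not tested.

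Light chains were called where a cell had at least 3 light chain UMIs and at least 90% of them were of 1 kind. Kappa was used by 46.8% of the members called in naive blood (42.8 to 50.8%), 40.1% in sham (35.5 to 45.0%) and 40.8% in SCI blood (36.8 to 44.9%), and these intervals overlapped. Both kinds stood above 10% in 10.5% of members of naive, 4.79% of sham and 13.5% of SCI blood. A doublet caller marked 1, 3 and 3 of the members.

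The comparison between conditions asked how circulating human immune cells differ after laminectomy and after spinal cord injury. Genes with at least 100 counts over a pair of libraries were compared, and a gene was called past the threshold where its log2 ratio was 0.5 or more in size. Sham against naive blood covered 5719 genes, of which 1.78% were called higher and 2.5% lower. SCI against naive blood covered 6083 genes, with 2.52% higher and 3.29% lower, and SCI against sham 6166 genes, with 2.35% higher and 2.94% lower. Median log2 ratios over all genes were -0.003, -0.016 and -0.012, and the 10th to 90th percentile ran from -0.30 to 0.28, -0.33 to 0.28 and -0.29 to 0.28. Both SCI comparisons share the SCI library, so their values are given side by side and are not independent.

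Type I interferon response genes were lower in SCI blood than in both other libraries. They encode antiviral effectors that cells make after interferon alpha or beta binds its receptor. Of 30 compared, 14 were called lower and 0 higher in SCI against sham, where 2.94% of all genes were lower, and their median log2 ratio was -0.37. SCI against naive had 8 called lower and 0 higher of 30, beside 3.29%, with a median of -0.26. Sham against naive had 1 called higher and 0 lower, with a median of 0.11. The called gene of the list was IFITM1, at 99.3 CPM in naive, 154 CPM in sham and 103 CPM in SCI blood.

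Genes of the IFIT family, which bind foreign RNA, were among those called. IFIT1 stood at 285 CPM in naive, 303 CPM in sham and 138 CPM in SCI blood, a log2 ratio of -1.05 (interval -1.25 to -0.84) for SCI against naive and -1.14 (-1.34 to -0.94) against sham. IFIT3 stood at 445, 485 and 236 CPM, with -0.91 (-1.07 to -0.75) and -1.04 (-1.19 to -0.88). SCI blood was the lowest library for both genes, and naive and sham blood differed by 0.09 and 0.12 on the log2 scale.

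Other effectors were also lowest in SCI blood. MX1, a GTPase that blocks viral replication, stood at 914 CPM in naive, 1095 CPM in sham and 640 CPM in SCI blood (log2 ratios -0.51 and -0.78 against naive and sham). ISG15, a ubiquitin-like modifier, stood at 1117, 1115 and 765 CPM (-0.55 and -0.54). IFI44L stood at 808, 956 and 579 CPM (-0.48 and -0.72), and IFITM3, a membrane protein that blocks viral entry, at 41.9, 48.6 and 20.3 CPM (-1.04 and -1.26). Some of the list differed little: PARP14 was at 898, 889 and 919 CPM, and the receptor chain IFNAR1 at 148, 131 and 137 CPM.

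Genes named for the size of their ratio, and not placed on that list, added further interferon-induced members. CMPK2, a mitochondrial nucleotide kinase, stood at 83.8, 92.5 and 35.5 CPM in naive, sham and SCI blood (-1.24 and -1.38 against naive and sham). HERC5, the ligase that attaches ISG15, stood at 89.5, 127 and 43.9 CPM (-1.03 and -1.53), RSAD2 (viperin) at 114, 162 and 66.7 CPM (-0.77 and -1.28), and USP18, which removes ISG15, at 80.9, 118 and 53.2 CPM (-0.61 and -1.15). WARS, a tRNA synthetase induced by interferon gamma, was at 64.9, 86.1 and 25.8 CPM (-1.33 and -1.74). In sham against naive, HERC5, RSAD2 and USP18 reached the threshold for a call, with log2 ratios of 0.50, 0.51 and 0.55. CMPK2 and WARS had 0.14 and 0.41 there. TNFSF10 (TRAIL), a death ligand, was at 113, 68.7 and 56.6 CPM, so it was already lower in sham blood (-0.72).

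IFI27 went against the rest, at 32.7 CPM in naive, 22.7 CPM in sham and 74.3 CPM in SCI blood (log2 ratios 1.18 and 1.70). Single cells held 15.8%, 20.9% and 11.4% of its counts, and only 14, 9 and 28 members had a UMI of it. In T cells IFI27 was at 15.85, 102.5 and 75.2 CPM, so sham blood was highest there.

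The lower interferon level was spread over cells and was also seen in TCL1A-negative B cells and T cells. After thinning to 1000 UMIs, a member held a median of 9 UMIs of the list in naive, 9 in sham and 6 in SCI blood, and the share with 5 or more was 89.0% (86.4 to 91.2%), 90.6% (87.6 to 93.1%) and 70.1% (66.5 to 73.4%). TCL1A-negative B cells held medians of 8, 7 and 5 UMIs, and 83.2%, 80.9% and 52.7% of them had 5 or more. T cells of the same libraries held medians of 6, 7 and 4 UMIs. Over the same genes the T cell medians of the log2 ratios were -0.40 for SCI against naive, -0.60 against sham and 0.16 for sham against naive.

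**Figure D4:**
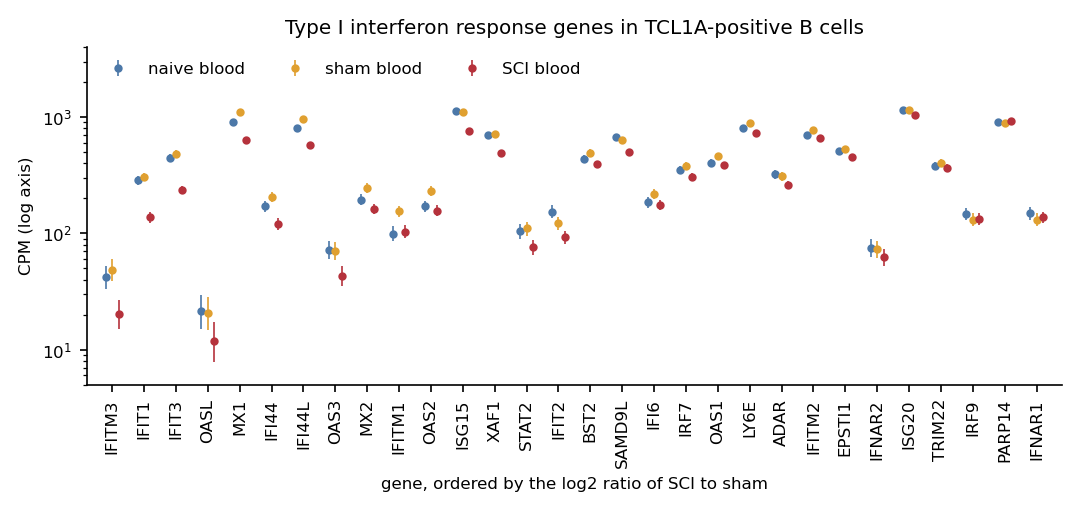
CPM (log axis) of 30 type I interferon response genes in TCL1A-positive B cells, with 1 point per blood library and 95% Poisson intervals, ordered by the log2 ratio of SCI to sham. SCI blood was lowest for IFIT1, IFIT3, MX1, ISG15 and most genes to the left, and the libraries lay close together for PARP14 and IFNAR1.

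Few genes of the interferon gamma list were called. Of 15 compared, 2 were called lower and 0 higher in SCI against sham (median log2 ratio -0.26, beside 2.94% of all genes lower), and 1 was lower in SCI against naive (median -0.12, beside 3.29%). WARS was called lower in both. GBP4, a guanylate-binding protein, was at 102, 104 and 113 CPM in naive, sham and SCI blood, and the receptor chain IFNGR2 at 220, 242 and 239 CPM.

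Several immediate early genes, which are transcribed within minutes of a stimulus or of handling, were higher in SCI blood. Of 14 compared with naive, 5 were called higher and 0 lower, where 2.52% of all genes were higher, 12 lay above 0 and the median log2 ratio was 0.37. Against sham, 3 of 15 were called higher, beside 2.35%, and all 15 lay above 0 (median 0.32). Sham against naive had 0 called higher and 1 lower of 14, with a median of 0.10. After thinning to 1000 UMIs, members held a median of 3 UMIs of the list in each library. The share with 5 or more was 25.1% (21.9 to 28.5%) in naive, 26.8% (22.8 to 31.1%) in sham and 30.7% (27.25 to 34.2%) in SCI blood, and these intervals overlapped. In TCL1A-negative B cells it was 28.8%, 45.7% and 43.6%, so there sham and SCI blood both lay above naive.

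DUSP1, a phosphatase that ends MAP kinase signalling, stood at 49.9 CPM in naive, 63.9 CPM in sham and 107 CPM in SCI blood, a log2 ratio of 1.10 (0.75 to 1.47) against naive and 0.74 (0.43 to 1.07) against sham. JUN, an AP-1 subunit, stood at 360.5, 366 and 534 CPM (0.57 and 0.54). CD69, an early activation receptor that holds cells in tissue, was at 155, 178 and 264 CPM (0.77 and 0.57), and FOS at 64.3, 84.0 and 107 CPM (0.73 and 0.35). MYC was at 94.7, 104 and 134 CPM (0.50 and 0.37). Each of these genes was highest in SCI blood. Outside the list, RHOB, a small GTPase, was at 68.9, 100.4 and 136 CPM (0.98 and 0.44), and DUSP6, an ERK phosphatase, at 32.1, 42.8 and 60.4 CPM (0.90 and 0.49).

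BTG2, an antiproliferative gene, was the member called lower in sham, at 427 CPM in naive, 292 CPM in sham and 365 CPM in SCI blood (-0.55 for sham against naive). T cells shared part of the pattern: their median over the same genes was 0.31 for SCI against naive and 0.06 against sham. JUN in T cells was 1.11 and 0.23 on the log2 scale, and CD69 was 0.22 and -0.09.

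Several heat shock genes were lower in naive blood than in both operated libraries, comparisons that share the naive library. Of 13 compared, 4 were called higher and 0 lower in sham (median log2 ratio 0.29, beside 1.78% of all genes higher), and 3 were higher in SCI blood (median 0.31, beside 2.52%), with 11 above 0 in each. SCI against sham had 0 called either way and a median of -0.06. HSPH1, a co-chaperone of HSP70, stood at 180 CPM in naive, 344 CPM in sham and 290 CPM in SCI blood, with log2 ratios of 0.93 (0.73 to 1.13) and 0.68 (0.49 to 0.88) against naive. HSPA8, the constitutive HSP70, stood at 1078, 1596 and 1596 CPM (0.57 and 0.57), and HSPD1, the mitochondrial HSP60, at 331, 496 and 399 CPM (0.58 and 0.27). STIP1, which links HSP70 to HSP90, was at 85.0, 137 and 138 CPM (0.69 and 0.70). The inducible HSPA1B was at 20.1, 19.0 and 20.7 CPM. In T cells the median of the list was 0.23 in sham and 0.06 in SCI against naive.

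Several MHC class II genes were lower in SCI than in naive blood. Of 15 compared, 4 were called lower and 0 higher in SCI against naive (median log2 ratio -0.18, beside 3.29% of all genes lower). SCI against sham had 1 lower (median 0.08, beside 2.94%), and sham against naive had 1 lower (median -0.10, beside 2.5%). In these comparisons in turn, 2, 9 and 0 of the 15 lay above 0. HLA-DQA1 stood at 1503 CPM in naive, 1465 CPM in sham and 823 CPM in SCI blood (-0.87 and -0.83), and HLA-DRB1 at 1684, 1649 and 1189 CPM (-0.50 and -0.47). Both loci were also lower in T cells of SCI blood, with log2 ratios of -0.95 and -0.92 for HLA-DQA1 and of -1.24 and -1.42 for HLA-DRB1. Reads of these loci were aligned to 1 reference haplotype, and the part of that in the values was not tested. HLA-DRA, CD74 (the invariant chain) and CIITA (the class II transactivator) had log2 ratios between -0.17 and 0.11 in all 3 comparisons. IFI30, a lysosomal thiol reductase, was lower in both operated libraries, at 74.6, 47.0 and 52.3 CPM (-0.66 and -0.51 against naive).

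A few homing receptors were lower in sham or SCI blood than in naive blood. In sham against naive, 3 of 16 were called lower and 0 higher (median log2 ratio -0.21, beside 2.5% of all genes lower), and in SCI against naive 2 of 16 (median -0.20, beside 3.29%), with 5 and 6 of them above 0. Both comparisons share the naive library. SCI against sham had 0 called either way (median 0.06). CCR7, which guides lymphocytes to T cell zones, stood at 193 CPM in naive, 114 CPM in sham and 130 CPM in SCI blood (-0.76 and -0.57 against naive). CXCR4, the receptor that retains cells in bone marrow, stood at 232, 164 and 192 CPM (-0.50 and -0.27), and CCR6 at 259, 189 and 178 CPM (-0.46 and -0.54). CCR7 in T cells was at 372, 363 and 363 CPM.

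**Figure D5:**
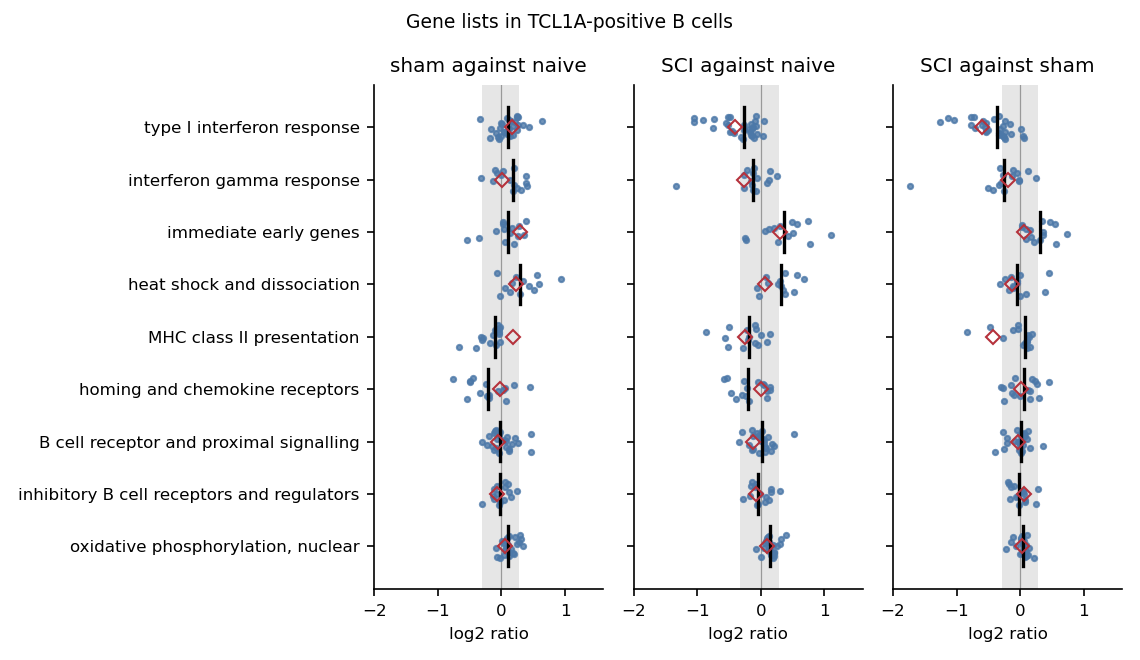
Log2 ratio (x axis) of each gene with at least 100 counts over the pair (points) in 9 lists, for the 3 comparisons of TCL1A-positive B cells. Black bars are list medians, red diamonds the medians of the same genes in T cells, and the grey band the 10th to 90th percentile of all genes; most type I interferon genes lay to the left of 0 in both SCI panels, with 2 and 3 of 30 above it against naive and sham, and most immediate early genes to the right.

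B cell receptor signalling genes differed little between the libraries. Of 23 genes compared, 0 were called in sham against naive and 0 in SCI against sham. In SCI against naive 1 was called higher, beside 2.52% of all genes. The medians were -0.02, 0.02 and 0.02 for sham against naive, SCI against naive and SCI against sham. The called gene was CR2 (CD21), the complement receptor, at 25.2 CPM in naive, 34.9 CPM in sham and 36.3 CPM in SCI blood, and the interval of its log2 ratio of 0.52 ran from -0.02 to 1.08. CD79B was at 2159, 2004 and 2186 CPM, and BTK, the kinase needed for B cell development, at 231, 246 and 250 CPM. None of 15 inhibitory receptors and regulators was called in any comparison, with medians of -0.02, -0.05 and -0.03.

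Of 20 transcription factors of the B lineage, 1 was called lower in sham against naive, beside 2.5% of all genes, and 0 either way in the other comparisons. This was ID3, an inhibitor of E proteins, at 161 CPM in naive, 89.3 CPM in sham and 126 CPM in SCI blood (-0.85, -1.14 to -0.57, for sham against naive). PAX5 was at 280, 247 and 238 CPM, EBF1 at 124, 141 and 150 CPM, and BCL11A at 458, 455 and 460 CPM. Among the 24 nuclear oxidative phosphorylation genes, 21, 23 and 19 lay above 0 in sham against naive, SCI against naive and SCI against sham, with medians of 0.11, 0.14 and 0.05, and none was called.

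Of the survival and apoptosis genes, 1 of 11 was called lower in sham against naive, beside 2.5% of all genes, and 2 of 13 were called higher in each SCI comparison, beside 2.52% against naive and 2.35% against sham. The medians were -0.01, -0.07 and 0.09 for sham against naive, SCI against naive and SCI against sham. BCL2, which blocks apoptosis, stood at 124 CPM in naive, 72.4 CPM in sham and 118 CPM in SCI blood (-0.77, -1.10 to -0.46, for sham against naive and 0.70, 0.40 to 1.01, for SCI against sham). BBC3 (PUMA), which promotes apoptosis, stood at 19.5, 23.8 and 35.5 CPM (0.85 and 0.57 for SCI against naive and sham). Of the NF-kB genes, 3 were called higher and 1 lower of 18 in sham against naive, 4 higher and 1 lower of 19 in SCI against naive, and 1 higher of 18 in SCI against sham. Their medians were 0.07, 0.07 and -0.03, and the shares of all genes were 1.78% higher and 2.5% lower, 2.52% and 3.29%, and 2.35% higher. NFKB2, a subunit of the alternative NF-kB pathway, stood at 80.9, 123 and 123 CPM (0.60 and 0.60 against naive). TNFAIP3 (A20), which ends NF-kB signalling, was at 21.8, 38.6 and 36.7 CPM (0.81 and 0.74 against naive). NFKBIA, the inhibitor of NF-kB, was lowest in sham blood, at 167, 108 and 142 CPM (-0.63). The RNA-binding ZFP36L2 had a similar order, at 361, 210 and 281 CPM (-0.78 and -0.36 against naive).

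Stage genes were called in both directions. Of 11 immature and transitional genes, 1 was called higher in sham against naive, 3 higher and 2 lower in SCI against naive, and 2 higher and 3 lower in SCI against sham. Their medians were 0.02, 0.10 and 0.13, and the shares of all genes were 1.78% higher, 2.52% higher and 3.29% lower, and 2.35% higher and 2.94% lower. CD38 stood at 43.6 CPM in naive, 52.9 CPM in sham and 25.8 CPM in SCI blood (-0.76, -1.27 to -0.26, against naive and -1.03, -1.52 to -0.56, against sham). PCDH9 stood at 315, 278 and 192 CPM (-0.72 and -0.54), and SOX4, a factor of early B cells, at 68.9, 104 and 59.9 CPM (-0.20 and -0.80). CD9, a tetraspanin, went the other way, at 107, 92.0 and 171 CPM (0.67 and 0.90), as did CD1C, a lipid-presenting molecule, at 75.8, 77.2 and 114 CPM (0.59 and 0.56). VPREB3 was at 340, 302 and 271 CPM (-0.32 and -0.15), and TCL1A itself, which chose the cells, at 1685, 1514 and 1430 CPM. TCL1B stood at 35.6, 48.1 and 65.8 CPM (0.88 for SCI against naive).

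Of the naive follicular genes, 2 of 11 were called lower in sham against naive and 1 of 12 in SCI against naive, among them CCR7 in both. The shares of all genes called lower were 2.5% and 3.29%. SCI against sham had 0 called of 12, with 11 above 0 and a median of 0.10. LAMP5 and AL139020.1, which separated members from TCL1A-negative cells, were lowest in SCI blood. LAMP5 stood at 76.3, 81.9 and 41.8 CPM in naive, sham and SCI blood (-0.87 and -0.97 against naive and sham), and AL139020.1 at 172, 190.2 and 121 CPM (-0.51 and -0.65).

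Among 7 atypical B cell genes, 0 were called in sham against naive, 2 higher and 1 lower in SCI against naive, and 1 of each in SCI against sham. The shares of all genes were 2.52% higher and 3.29% lower in SCI against naive, and 2.35% and 2.94% in SCI against sham. The Fc receptor-like genes FCRL3 and FCRL5 lay in opposite directions. FCRL3 was at 38.5, 37.0 and 76.0 CPM in naive, sham and SCI blood (0.98 and 1.03 against naive and sham), and FCRL5 at 196, 185 and 118 CPM (-0.73 and -0.65). In the TCL1A-negative cells FCRL3 was at 36.4, 77.8 and 123 CPM, so there it was already higher in sham blood.

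The highest ratio of SCI blood against naive belonged to FAM118A, at 22.4 CPM in naive, 24.3 CPM in sham and 115 CPM in SCI blood, a log2 ratio of 2.35 (1.88 to 2.89). T cells had 23.2, 28.4 and 129 CPM of it (2.47), so this difference was as large outside the B lineage. CCDC88A (girdin), an actin-binding protein, stood at 40.8, 23.8 and 102 CPM (1.31, 0.93 to 1.72, against naive), while in T cells it was at 22.8, 25.9 and 20.1 CPM. PHF21A, a histone reader, was lower in both operated libraries, at 123, 56.5 and 65.4 CPM (-1.12 and -0.91 against naive), and in T cells was at 36.3, 37.8 and 33.5 CPM. MUM1 stood at 29.9, 55.5 and 56.1 CPM (0.89 and 0.90 against naive), with 33.3, 35.2 and 34.9 CPM in T cells. CCZ1B, lower in SCI blood at 49.9, 55.0 and 20.3 CPM, has the near-identical copy CCZ1 and is uncertain for that reason.

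The remaining lists held few called genes. Beside them, the shares of all genes were 1.78% higher and 2.5% lower in sham against naive. They were 2.52% and 3.29% in SCI against naive, and 2.35% and 2.94% in SCI against sham. None of 13 MHC class I genes was called in any comparison. Of 8 genes of the BAFF, APRIL and CD40 receptors, NFKB2 alone was called, in both comparisons with naive. Toll-like receptors and adaptors had 1 higher and 1 lower of 12 in sham against naive, 2 lower in SCI against naive and 0 in SCI against sham. TLR7, a sensor of single-stranded RNA, was called lower in both, at 62.0, 41.8 and 43.5 CPM in naive, sham and SCI blood (-0.57 and -0.51 against naive). IL10RA, a chain of the IL-10 receptor, was the called cytokine receptor, at 64.3, 42.3 and 44.7 CPM (-0.60 and -0.52). Of 7 glucocorticoid response genes, 3 were called lower in sham against naive, 1 higher in SCI against naive and 2 higher in SCI against sham, beside 2.5%, 2.52% and 2.35% of all genes and with medians of -0.10, -0.20 and 0.23.

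Genes of other stages passed the count minimum in small numbers, and no list of them is read as a result. The shares of all genes beside them were 1.78% higher and 2.5% lower in sham against naive. In SCI against naive they were 2.52% and 3.29%, and in SCI against sham 2.35% and 2.94%. Of the memory genes, 1 of 4, 1 of 6 and 0 of 5 were called in sham against naive, SCI against naive and SCI against sham, the called gene being IGHA1. Of the 2 pre-B and recombination genes compared, SOX4 was called higher in sham against naive and lower in SCI against sham. Of 8 plasma cell genes, XBP1, a driver of secretion, was called in SCI against naive, at 25.8, 32.8 and 43.0 CPM, with 21.6% of its SCI counts in 1 cell. The whole plasma cell and secretion list was not low, and summed to 2782, 3010 and 2702 CPM in naive, sham and SCI blood. At least 1 UMI of it was in 98.3%, 99.8% and 98.6% of members. Of 8 cell cycle genes, MCM7, a replication helicase subunit, was called lower in SCI against naive, at 49.9, 37.0 and 32.1 CPM. Of 2 germinal centre genes, GCSAM was called higher in SCI against sham, at 29.8, 18.5 and 29.1 CPM. Of 8 immunoglobulin constant genes, IGHA1 and IGLC7 were the called ones.

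Other genes named for the size of their ratio were mostly of low level. Higher in sham against naive were U62317.5, AL031777.3, MTHFD2, DERA, INSIG1, XRRA1, CKS2 and HRK, with log2 ratios from 0.70 to 1.70. MTHFD2, a mitochondrial folate enzyme, stood at 32.1, 61.3 and 40.1 CPM in naive, sham and SCI blood, and INSIG1, which restrains sterol synthesis, at 42.5, 74.5 and 63.3 CPM. Lower in sham against naive were RAB30-AS1, ARL11, ZNF860, LINC02397 and SERTAD2, with log2 ratios from -0.99 to -0.78. LINC02397 stood at 153, 85.6 and 143 CPM.

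In SCI blood HSD17B12, a fatty acid elongation enzyme, was at 24.1, 40.2 and 51.9 CPM (1.10 against naive), and XRRA1 at 29.8, 51.8 and 60.8 CPM (1.02). N4BP3, GPM6A, COL19A1, LINC00926 and CCL4 were higher in SCI against sham, with log2 ratios from 0.77 to 1.01. LINC00926 stood at 180, 150 and 258 CPM, and 18.6% of the CCL4 counts of SCI blood lay in 1 cell. MUC20-OT1, at 123, 115 and 55.7 CPM, HIST1H2BG, at 68.3, 84.5 and 29.6 CPM, AL662844.4, at 57.4, 60.2 and 25.3 CPM, and MACROD2, at 66.6, 51.8 and 30.4 CPM, were lower in SCI blood than in both others. MPP6 stood at 37.3, 53.4 and 22.4 CPM.

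A few members carried many UMIs of other lineages, and some large ratios rest on them. Summed over the 9 monocyte markers, members held 1156 CPM in naive, 66.1 CPM in sham and 689 CPM in SCI blood, and CD14 was at 0 in sham and SCI blood. A single cell gave 1209 of 2014 UMIs in naive and 1510 of 1633 in SCI blood. S100A8 stood at 274, 4.76 and 333 CPM, S100A9 at 576, 3.17 and 293 CPM, and LYZ at 124, 10.6 and 8.86 CPM. In SCI blood 1 cell held 100% of the S100A8 counts and 99.1% of those of S100A9. Without the 4, 3 and 4 members that held at least 5 UMIs of a monocyte, basophil and mast cell, or NK and cytotoxic list, the log2 ratio of S100A9 for SCI against sham went from 6.42 to -0.079, that of S100A8 from 6.05 to -4.57, and that of S100A8 for sham against naive from -5.77 to 0.034. This alternative was chosen after seeing the data. S100A8 and S100A9 also ranked among the 15 highest genes against TCL1A-negative cells, with log2 ratios of 5.17, -6.47 and 8.70 for S100A8 and of 6.24, -8.32 and 8.52 for S100A9 in naive, sham and SCI blood, so their sign turned with the library. CST3 (cystatin C) stood at 62.6, 34.9 and 19.4 CPM, with 22.02% of its naive counts in 1 cell.

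The remaining lists of markers of other lineages were low. Basophil and mast cell markers summed to 1.72, 43.9 and 92.4 CPM in naive, sham and SCI blood, of which 1 cell gave 71 of 83 UMIs in sham and 3 cells gave 215 of 219 in SCI blood. NK and cytotoxic markers summed to 52.8, 16.4 and 16.9 CPM, with GZMB and NCAM1 at 0 in all 3. T cell markers, of which the CD3 genes are 0 by the rule, summed to 83.8, 99.9 and 94.6 CPM. Erythroid and platelet markers had 1, 0 and 2 counts. Single cells also held 56.0%, 35.9% and 34.2% of the counts of IGLC7, a lambda constant gene that is otherwise among the highest ratios against naive. Apart from IFI27, already given, and DUSP6, with 10.7% of its naive counts in 1 cell, the interferon, immediate early, heat shock and homing genes with values above had no more than 9.59% of their counts in 1 cell of a library.

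In injured spinal cord 6 of 127 human cells met the rule, a share of 4.72% (1.75 to 10.00%). These cells were deep, with a median of 13550 UMIs, and came from a papain digest followed by magnetic sorting, unlike blood. VPREB3, CD24, IGHM and CD79A had UMIs in 6 of 6, IGHD in 5 of 6 and CD27 in 0 of 6. TCL1A had 4 to 38 UMIs per cell. FOS was found in 5 of 6 with 45 UMIs, JUN in 4 of 6 with 46 UMIs, of which 37 lay in 1 cell, and CD69 in 5 of 6 with 68 UMIs, of which 50 lay in 1 cell. No comparison with blood was made from 6 cells prepared in another way.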

How the data were processed

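Human and mouse transcripts were counted in 4 single-cell libraries (10x 3′ chemistry). The authors sorted live human CD45+ cells, sequenced all libraries in 1 run and deposited UMI counts made with CellRanger 3.1.0 on a combined hg38 and mm10 reference, per the file headers and the submitters' processing notes; the files hold filtered barcodes of both species. Members and gene lists were chosen with earlier results of these data known. T cells had at least 2 CD3 UMIs and no MS4A1 or CD79A UMI; TCL1A-negative B cells met every other part of the member rule.

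Raw counts were summed per library and cell group, and CPM were scaled to the total of human genes, leaving out ribosomal and mitochondrial ones. Log2 ratios had 0.5 counts added, with a conditional binomial interval; shares had Clopper-Pearson intervals and counts Poisson intervals, at 95%. With 1 library per group there was no test and no p-value. Comparisons covered genes with at least 100 counts over the pair, called from a log2 ratio of 0.5. Named genes were the 12 highest and 12 lowest ratios per comparison with at least 50 CPM in 1 group, and the 15 highest and 15 lowest against TCL1A-negative B cells; genes of the 31 lists were also named. Ribosomal, mitochondrial and antigen receptor variable genes, HLA genes outside the lists and sex-linked markers were left out of the ranking. Scrublet (scanpy 1.11.5) marked 6 barcodes of sham blood by its own threshold, so the highest scores were marked at 0.8% per 1000 barcodes; these were kept in the main values and removed as an alternative, and the scripts were tested on simulated data. Other tools were Python 3.11.15, scipy 1.17.1 and, for TMM factors, edgeR 4.0.16 in R 4.3.3. Precision is limited by 2526469 to 3627993 UMIs over all members of a blood library. No human genome sequence was used here, and a few genes that the lists and their counts include are not reported here.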

Additional observations from a re-analysis of the deposited data

How the results depend on the processing

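Each result was recomputed under alternatives that changed 1 choice. With at least 2 TCL1A UMIs, the shares of human cells were 8.27% in naive, 7.98% in sham and 9.65% in SCI blood and the shares of B cells 47.2%, 70.7% and 69.6%; thinned to 1000 UMIs they were 5.62%, 4.48% and 5.15%, and 40.9%, 49.9% and 49.9%. The other 24 of 36 values for shares moved by less than their intervals. Counts of genes called higher and lower followed how many genes were compared. In sham against naive these were 561 and 776 at a minimum of 20 counts, 22 and 22 at 300 counts, and 46 and 48 after thinning, against 102 and 143. In SCI against naive they were 670 and 836, 33 and 35, and 52 and 55, against 153 and 200. In SCI against sham they were 717 and 687, 25 and 43, and 38 and 48, against 145 and 181. The other 54 of 72 counts, under TMM, median of ratios, a total without immunoglobulin genes, a mean of per-cell CPM, the study's filter on outlying cells, doublet removal, at least 90% human UMIs, at least 2 TCL1A UMIs and removal of cells with other lineages' UMIs, stayed within 1.5 times.

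Removal of cells with other lineages' UMIs was chosen after seeing the data. Over 12 alternatives, the interferon median ranged from -0.41 to -0.33 in SCI against sham and from -0.34 to -0.19 in SCI against naive, the immediate early median from 0.18 to 0.34 and from 0.29 to 0.50, the heat shock median from 0.26 to 0.34 in sham against naive, and the homing median from -0.21 to -0.11 there. Of 792 values for named genes, 3 turned direction, all without the cells that held other lineages' UMIs: S100A8 to 0.034 in sham against naive and to -4.57 in SCI against sham, and S100A9 to -0.079 in SCI against sham. A further 42 moved without turning direction. Among them were 26 of 72 named values after thinning and 7 of 72 under a mean of per-cell CPM. No paired analysis was possible because each group has 1 library. After thinning, 58 of 77 list medians kept their sign. Counts as low as the 23, 28 and 15 of MME, and shares under 0.5% of members are at the limit of this depth.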
